A study of Mus musculus with 27 samples.

Results

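The genes described here encode TAL1 and the proteins that form a DNA-bound complex with it. They were the 10 rows with the symbols Tal1, Lyl1, Lmo1, Lmo2, Lmo4, Ldb1, Cbfa2t3, Gfi1b, Ssbp2 and Ssbp3, out of 46078 gene rows in each of 2 count tables and 22906 in the other, and all 10 were present in all 3 tables. Messenger RNA was sequenced in 27 mouse libraries, 3 in each of 9 groups. Thymus came from 12 C57BL/6 mice that had received a bone marrow transplant, in 4 groups labelled AKT(E17K) with TAL1 (mice m116, m117 and m119), AKT(E17K) (m121, m122 and m124), TAL1 (M317, M318 and M319) and empty vector (M311, M312 and M315). AKT(E17K) is a mutant of the kinase AKT1 that stays active. The sources used here give no age and no vector design. They also do not say whether the introduced TAL1 was the mouse or the human form, and the thymus of such a mouse can hold host cells beside cells of the graft. The other 15 libraries came from ProT cells, a single mouse T cell precursor line carrying CreER and LoxP, after 0, 6, 12, 18 and 24 h of 4-hydroxytamoxifen, a drug that activates CreER. The labels describe TAL1 as induced at all 5 times. The labels leave unstated whether libraries of a time were grown as separate cultures. Their p-values therefore rest on a spread that may be technical.

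TAL1 and its close relative LYL1 are basic helix-loop-helix proteins that bind DNA at E-box sites as pairs with an E protein such as those encoded by Tcf3 and Tcf12. The LIM-only proteins LMO1 and LMO2 link that pair to LDB1, a scaffold that joins with itself and can bring distant regulatory elements together, and SSBP2 and SSBP3 bind LDB1 and keep it from being degraded. CBFA2T3, also called ETO2, and GFI1B bring repressive enzymes to the same sites in blood cells. In T cell acute lymphoblastic leukaemia, TAL1, LYL1, LMO1 and LMO2 are known for being switched on in developing T cells that normally shut them off.

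Tal1 (ENSMUSG00000028717) lies on chromosome 4 from 115056426 to 115071755 on the plus strand of GRCm38, with no other annotated gene across it. Lyl1 (ENSMUSG00000034041) lies on chromosome 8 from 84701457 to 84704715 on the plus strand and overlaps Nfix on the other strand. Ldb1 (ENSMUSG00000025223), on chromosome 19 from 46031570 to 46045214 on the minus strand, overlaps Pprc1 on the other strand. Ssbp2 (ENSMUSG00000003992) runs from 91460283 to 91703429 on chromosome 13 and Ssbp3 (ENSMUSG00000061887) from 106910701 to 107049694 on chromosome 4, both on the plus strand. Lmo1 (chromosome 7, 109138572 to 109175207, minus), Lmo2 (chromosome 2, 103957986 to 103981878, plus), Lmo4 (chromosome 3, 144188530 to 144205220, minus), Cbfa2t3 (chromosome 8, 122625141 to 122699109, minus) and Gfi1b (chromosome 2, 28609450 to 28621982, minus) complete the set. All members but Tal1 and Gfi1b overlap another annotated gene. The strand setting of the counting was not given in the sources used here, so reads over such overlaps may be lost or assigned to either gene.

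The promoters of both pairs of related members that went in opposite directions in ProT cells, Tal1 with Lyl1 and Ssbp2 with Ssbp3, are printed below from RefSeq (build GRCm38.p6), each from 250 bases before a transcription start to 50 after it, in the direction of the gene. RefSeq gave 17 such starts for 9 of the 10 members, and the first listed start of each gene is shown. Capitals mark the E-box CANNTG, which reads the same on both strands, and AGATAA, a motif bound by GATA factors, searched on both strands. Other sites that GATA factors can bind were not searched. The windows lie at chr4:115056176-115056475, chr8:84701207-84701506, chr13:91460847-91461146 and chr4:106911220-106911519.
Tal1: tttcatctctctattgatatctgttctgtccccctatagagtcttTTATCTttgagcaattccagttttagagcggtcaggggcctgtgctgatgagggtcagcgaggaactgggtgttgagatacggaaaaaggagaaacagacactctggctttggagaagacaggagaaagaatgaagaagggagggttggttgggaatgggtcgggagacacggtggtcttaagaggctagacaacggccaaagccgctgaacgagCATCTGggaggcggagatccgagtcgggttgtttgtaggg
Lyl1: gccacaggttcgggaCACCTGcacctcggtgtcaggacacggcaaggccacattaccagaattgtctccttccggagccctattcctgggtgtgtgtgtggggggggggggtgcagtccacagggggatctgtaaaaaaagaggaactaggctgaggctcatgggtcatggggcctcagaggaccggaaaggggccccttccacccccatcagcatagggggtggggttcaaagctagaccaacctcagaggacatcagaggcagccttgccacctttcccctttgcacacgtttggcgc
Ssbp2: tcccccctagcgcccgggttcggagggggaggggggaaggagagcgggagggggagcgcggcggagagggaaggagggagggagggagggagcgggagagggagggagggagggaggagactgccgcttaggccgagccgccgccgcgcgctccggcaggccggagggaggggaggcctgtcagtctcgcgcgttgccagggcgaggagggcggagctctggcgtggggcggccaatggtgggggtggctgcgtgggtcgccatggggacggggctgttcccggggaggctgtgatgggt
Ssbp3: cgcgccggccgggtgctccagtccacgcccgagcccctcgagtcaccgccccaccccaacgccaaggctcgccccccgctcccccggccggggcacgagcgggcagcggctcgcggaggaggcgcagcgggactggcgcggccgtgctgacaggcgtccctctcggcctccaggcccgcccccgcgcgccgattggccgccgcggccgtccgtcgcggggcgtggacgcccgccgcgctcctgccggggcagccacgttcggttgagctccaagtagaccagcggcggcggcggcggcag
The Tal1 window held 1 E-box and 1 AGATAA, which is written on the opposite strand and begins at base 46. The Lyl1 window held 1 E-box and no AGATAA, and the Ssbp2 window and this first Ssbp3 window held neither. Over the first listed starts of the 9 members, 5 had an E-box and 1 had AGATAA, against 72.3% and 11.2% of the 32851 promoters of the same length. Over all 17 starts, 8 of the 9 members had an E-box at 1 start or more and 3 had AGATAA, and the second Ssbp3 start, not shown, held 2 E-boxes and 1 AGATAA. The counts were made per gene and do not tell which start was used.

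Libraries held 2073752 to 3661056 counts in genes in the AKT(E17K) experiment, 3893990 to 11302098 in the empty vector experiment and 2660641 to 6599146 in ProT cells, and this number sets how small a change could be seen. The coefficient of variation between replicates beyond counting noise was 35.0%, 22.0% and 11.6% in these 3 tables. All 13 thymocyte markers were detected in all 12 thymi, where their levels summed to 5915 to 16818 CPM (counts scaled to a common library size with TMM factors). In ProT libraries 9 to 12 of the 13 were detected, summing to 864 to 1044 CPM. Lck, Bcl11b and Tcf7 were high, while Cd4, Cd8a and Cd8b1 did not exceed 0.46 CPM in any ProT library. The 6 progenitor markers, led by Kit, summed to 396 to 509 CPM in ProT libraries and to at most 30.1 CPM in thymus. A pair of ProT libraries stood apart from those of their own time. Library 1 at 6 h and library 1 at 12 h differed from the others of their times with a chi-square per degree of freedom of 18.4 to 22.8, against 2.39 to 7.31 for the other pairs of libraries of a time. Calls of the complex genes that change without these 2 libraries are given both ways. In the AKT(E17K) experiment, m124 and m119, which carry different labels, were more like each other (r = 0.935 across genes) than like any mouse of their own group. The AKT(E17K) mouse m122 was also most like m119 (r = 0.913), so 3 of the 6 mice were closest to one of the other label.

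All 10 members were detected in each of the 15 ProT libraries. Per kilobase of exon, Tal1 stood far above the others at 0 h, with a level of 687 ± 23.6 CPM per kb (SD, n = 3). Whether the Tal1 counts include an introduced mouse copy, whose length may differ from that of the gene, was not tested. Ssbp3 followed with 34.1 ± 3.45 CPM per kb, then Lyl1 with 30.4 ± 3.66, Ldb1 with 24.7 ± 4.49, Lmo4 with 20.4 ± 1.94 and Cbfa2t3 with 19.2 ± 1.34. The ranges of neighbours among these 5 overlapped. Ssbp2 (8.77 ± 0.828 CPM per kb), Lmo1 (6.45 ± 1.37) and Lmo2 (5.12 ± 1.54) were lower, and Gfi1b was lowest at 2.18 ± 0.599. Neighbours overlapped in this lower part of the order only for Lmo1 and Lmo2. At 24 h the order had changed below Tal1. Lyl1 (48.7 ± 1.64 CPM per kb) and Ssbp3 (46.1 ± 2.96) stood well above Lmo4 (22.4 ± 1.15), Cbfa2t3 (19.6 ± 0.979) and Ldb1 (14.5 ± 1.04), while Ssbp2, at 4.17 ± 0.49, was below Lmo1 at 6.82 ± 0.399.

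**Figure D1:**
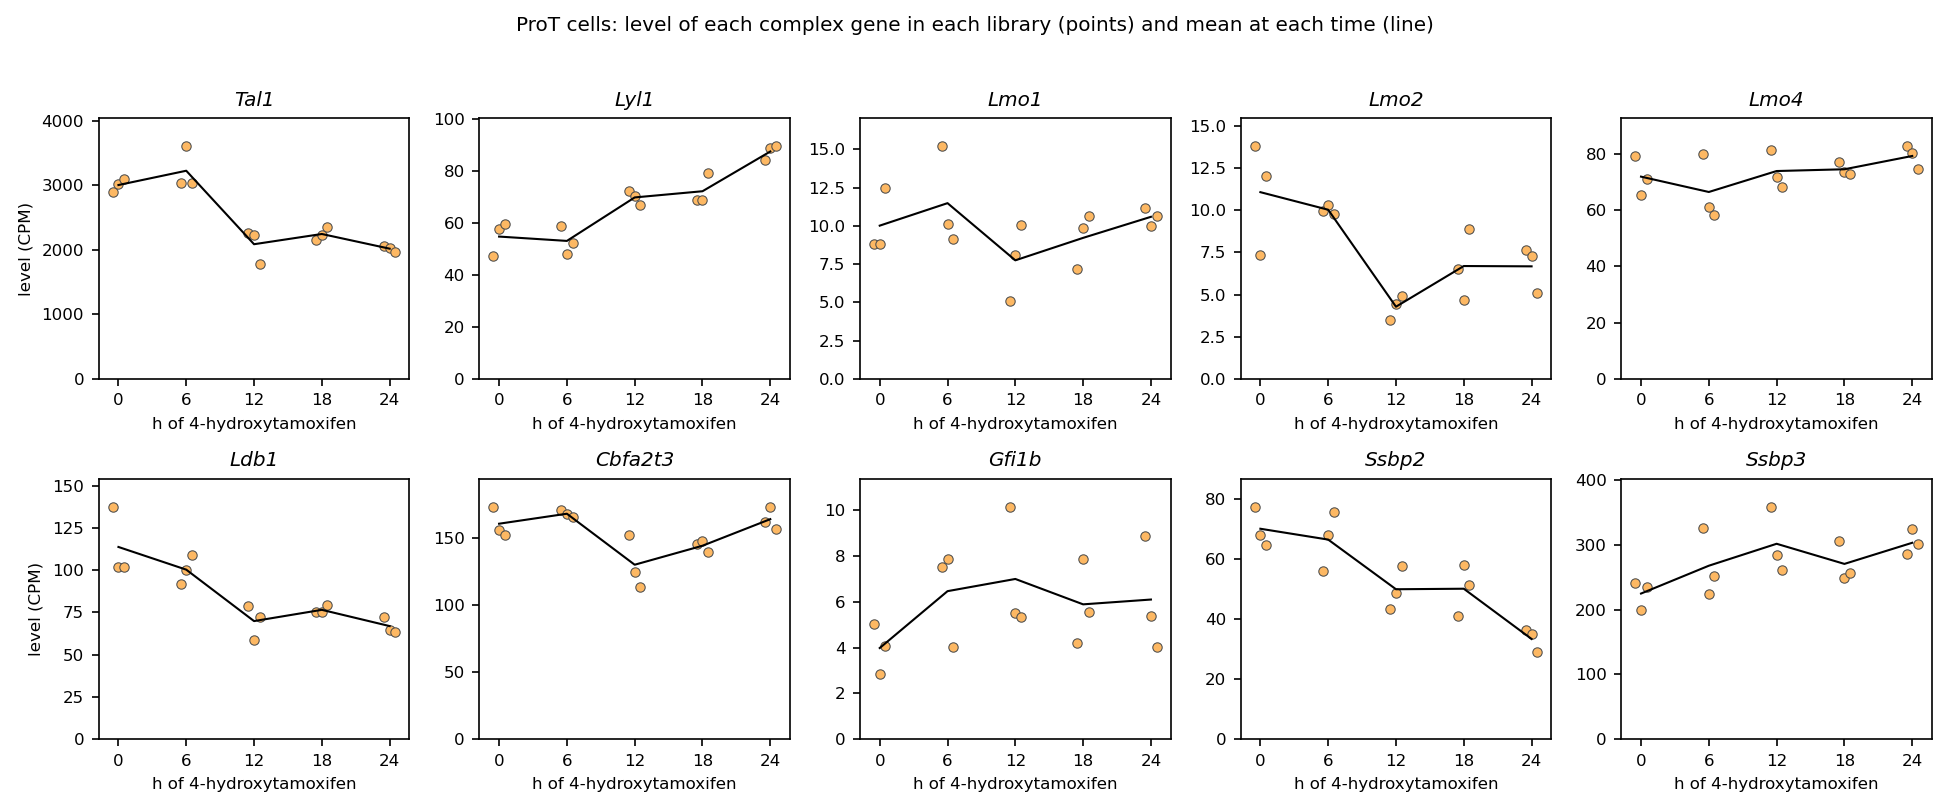
Level of each complex gene in CPM (vertical axis, from 0, a separate scale for each gene) against hours of 4-hydroxytamoxifen in ProT cells. Points are single libraries, 3 at each time, and the line joins the means; Tal1, Ldb1 and Ssbp2 are lower at 24 h than at 0 h in all libraries, and Lyl1 is higher.

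The complex genes split by direction over the ProT time course. Tal1, Ldb1 and Ssbp2 fell, Lmo2 was lowest at 12 h and Lyl1 rose. Ssbp3 was called higher at 12 and 24 h, but not at 18 h or over all times (adjusted p = 0.102, edgeR). Lmo1, Lmo4 and Gfi1b passed no test against 0 h, except Gfi1b at 12 h under scaling by library size alone (adjusted p = 0.0484). The 5 genes Tal1, Lyl1, Lmo2, Ldb1 and Ssbp2 changed over the 5 times together (edgeR quasi-likelihood F test, Benjamini-Hochberg adjusted p below 0.05 over 13610 genes), where 18.0% of all genes did. Without the 2 libraries that stood apart, 8 members changed over all times, with Lmo4 (adjusted p = 0.043), Cbfa2t3 (0.00171) and Ssbp3 (0.00411) added, while the share of all genes that did was 32.4%. At 6 h no member differed from 0 h (edgeR), and 0% of all genes did. No member had an unadjusted p under 0.05 at 6 h and DESeq2 called none, while 734 of all genes had such a p and DESeq2 called 1.

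Against 0 h, 4 members fell at 12 h and 1 rose, where 5.69% of all genes tested fell and 6.33% rose. The median log2 fold change was -0.37 over the 10 members and -0.01 over all genes. At 18 h, 3 members fell and 1 rose, against 3.92% and 4.89% of all genes. At 24 h, 3 fell and 2 rose, against 9.30% and 9.43%, and the median was 0.04 over the members and -0.01 over all genes. Against 6 h, 4 members were lower at 12 h and 1 was higher, against 5.31% and 5.54% of all genes. The comparisons with 0 h share the same 3 libraries. Scaling by library size alone moves the median of all genes upward by 0.179 at 12 h, 0.133 at 18 h and 0.173 at 24 h on the log2 scale, so the directions given are relative to the bulk of genes. Under that scaling 2 members were called lower and 3 higher at 12 h, where 339 genes were lower and 2041 higher (17.5% of all). At 18 h, 1 was lower and 1 higher, against 246 and 1122 genes (10.1%). At 24 h, 3 were lower and 2 higher, against 622 and 2560 genes (23.4%). At 12 h against 6 h, 3 were lower and 1 higher, against 386 and 908 genes (9.51%). Without the 2 libraries that stood apart, 5 members were lower and 0 higher at 12 h, where 16.1% of all genes were called in either direction. There were then 4 lower and 2 higher at 24 h, where 26% of all genes were called, and 5 lower and 1 higher at 12 h against 6 h, where 19.7% were. The 18 h counts stayed at 3 lower and 1 higher, with 15% of all genes called.

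**Figure D2:**
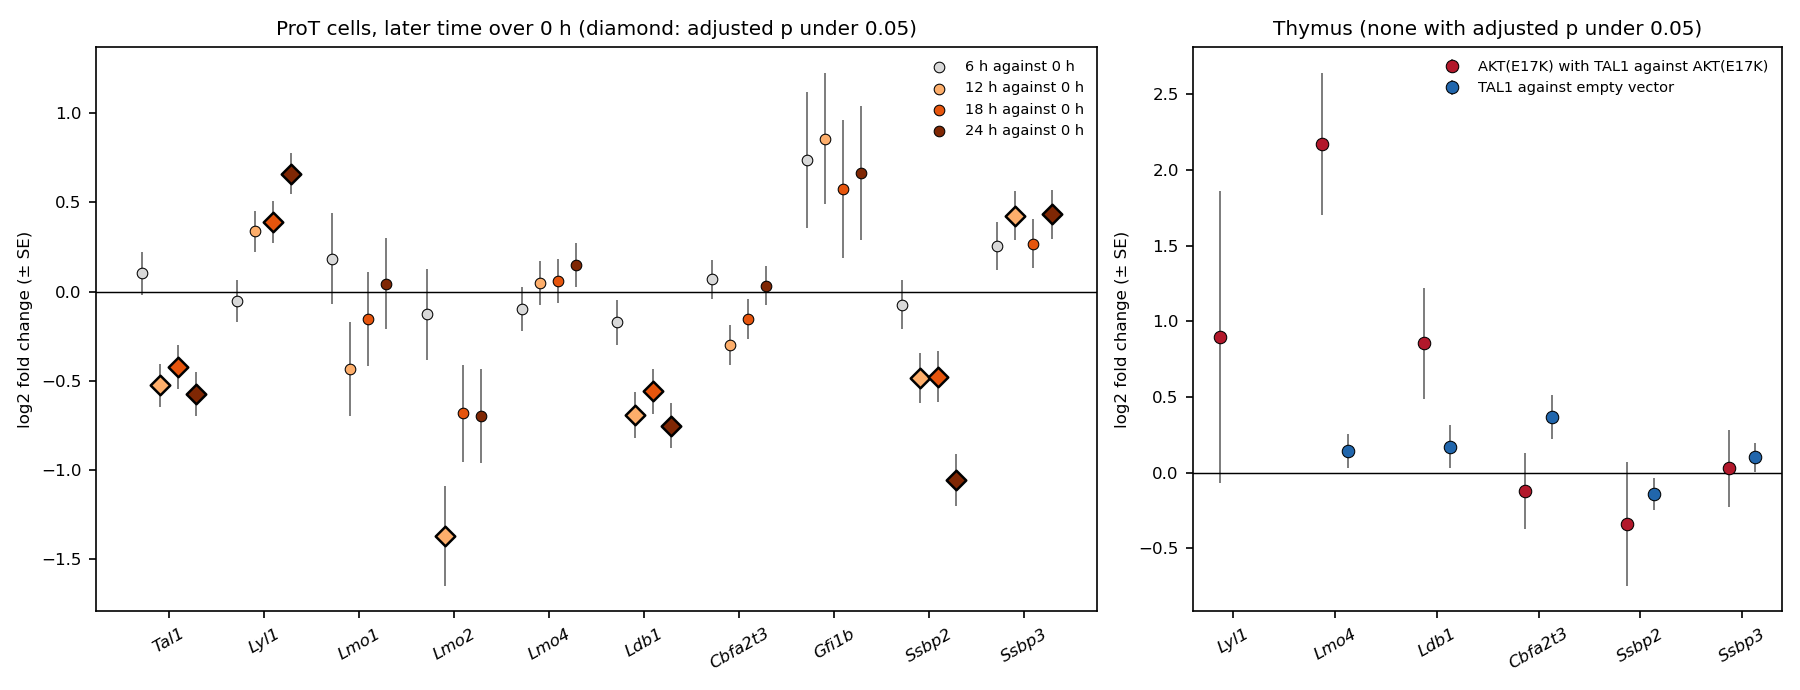
Log2 fold change with its SE for the complex genes, at each later time over 0 h in ProT cells (left, shades from light at 6 h to dark at 24 h, diamonds with adjusted p under 0.05) and for the TAL1 label in thymus (right, red with AKT(E17K), blue against empty vector). Tal1, Ldb1 and Ssbp2 lie below 0 from 12 h on and Lyl1 and Ssbp3 above it; in thymus Lmo4 has a value of 2.17 with AKT(E17K) and 0.14 without it, and no gene there passed the threshold.

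Tal1 had 2895, 3028 and 3098 CPM at 0 h, 3033, 3608 and 3045 CPM at 6 h and 1963 to 2068 CPM at 24 h. Its log2 fold change at 6 h over 0 h was 0.10 ± 0.12 (SE, adjusted p = 0.941, edgeR). Every library from 12 h on, with 1779 to 2358 CPM, was below every library at 0 and 6 h. The log2 fold change over 6 h was -0.63 ± 0.12 at 12 h (SE, adjusted p = 0.00121, edgeR) and the fold change over 0 h at 24 h was 0.672. Both held with any 1 of their 6 libraries left out. The 12 h call against 0 h (log2 fold change -0.53, adjusted p = 0.00509) was lost under scaling by library size alone (-0.34, adjusted p = 0.0541). At 18 h the log2 fold change was -0.42 (adjusted p = 0.0299). That call was lost with any 1 of the 6 libraries left out, with adjusted p from 0.0568 without 18 h library 3 to 0.142 without 18 h library 1, and under scaling by library size alone (0.146). Tal1 was thus called higher at no time after 4-hydroxytamoxifen in these counts, which do not show a TAL1 copy that differs from the counted mouse gene.

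Lyl1 had 47.3, 57.5 and 59.6 CPM at 0 h, 58.9, 48.1 and 52.3 CPM at 6 h and 72.4, 70.4 and 66.8 CPM at 12 h. At 18 h it had 68.7, 68.8 and 79.3 CPM, and at 24 h it had 84.2, 89.0 and 89.6 CPM. Libraries at 24 h were above all others, and those at 12 and 18 h, which overlapped each other, were above all at 0 and 6 h. Against 0 h the log2 fold change was 0.66 ± 0.12 at 24 h (SE, adjusted p = 0.000278, edgeR), and it held with any 1 library left out. The 18 h value was 0.39 ± 0.12 (adjusted p = 0.0363), and the call held only without 0 h library 3. Leaving out library 1 or 2 at 0 h gave an adjusted p of 0.166 or 0.0791, and leaving out library 1, 2 or 3 at 18 h gave 0.0743, 0.0579 or 0.151. At 12 h the value was 0.34 (adjusted p = 0.0554), which passed under scaling by library size alone (0.53, adjusted p = 0.0114). The step over 6 h at 12 h, 0.39 (adjusted p = 0.0242), ended when library 2 or 3 at 6 h (0.139 and 0.0839) or library 1 or 2 at 12 h (0.0516 and 0.0657) was left out.

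Among the LIM-only genes, Lmo2 changed and the others did not pass the test. Lmo2 had 13.8, 7.37 and 12.1 CPM at 0 h, 9.98, 10.3 and 9.79 CPM at 6 h and 3.48, 4.44 and 4.92 CPM at 12 h. It then had 6.53, 4.68 and 8.87 CPM at 18 h and 7.67, 7.27 and 5.09 CPM at 24 h. The 12 h libraries lay below all libraries at 0, 6 and 24 h, and those at 18 h overlapped with 12 h. These levels rest on 19 to 65 counts per library. The log2 fold change at 12 h was -1.37 ± 0.28 over 0 h (SE, adjusted p = 0.00173) and -1.24 ± 0.27 over 6 h (adjusted p = 0.00339, edgeR), and both held with any 1 library left out. At 24 h it was -0.70 ± 0.26 over 0 h (adjusted p = 0.0633), which passed without the 2 libraries that stood apart (0.0452) and without 0 h library 2 (0.0328).

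Lmo4, whose protein also binds LDB1, had 58.1 to 82.7 CPM over the 15 libraries, and its log2 fold change at 24 h was 0.15 ± 0.12 (SE, adjusted p = 0.414, edgeR). Lmo1 had 5.08 to 15.2 CPM, from 21 to 99 counts, with a log2 fold change of 0.04 ± 0.26 at 24 h (adjusted p = 0.921). Levels of the 3 LIM-only genes were also set side by side per kilobase within each library. Lmo4 made up 68.5%, 69.9% and 69.7% of their sum at 24 h, against 65.0%, 67.2% and 59.7% at 0 h. At 12 h its shares were 82.5%, 73.7% and 68.9%.

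Ldb1 had 72.4, 64.6 and 63.7 CPM at 24 h, against 138, 102 and 102 CPM at 0 h. At 6 h it had 91.8, 99.8 and 109 CPM, at 12 h 78.7, 58.7 and 72.1 CPM, and at 18 h 75.2, 75.2 and 79.1 CPM. All libraries from 12 h on lay below all at 0 and 6 h. Set against 0 h, Ldb1 at 24 h had a log2 fold change of -0.75 ± 0.13 (SE, adjusted p = 0.000204, edgeR). The 12 h value was -0.69 ± 0.13 with an adjusted p of 0.000595, and the 18 h value -0.56 ± 0.13 with one of 0.006. The 12 h and 24 h calls held with any 1 library left out, and the 18 h call was lost without 0 h library 1 (adjusted p = 0.0688), the highest of all. Over 6 h the value at 12 h was -0.52 (adjusted p = 0.00692), with 0.0639 without 12 h library 2. Pprc1, which overlaps Ldb1 on the other strand, had 19.1 to 22.4 CPM at 24 h, against 10.9 to 16.4 CPM at 0 h.

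The SSBP genes, whose proteins stabilise LDB1, moved apart. Ssbp2 had 36.2, 34.9 and 28.9 CPM at 24 h, against 77.4, 68.0 and 64.6 CPM at 0 h. It had 55.9 to 75.4 CPM at 6 h, 43.4 to 57.6 CPM at 12 h and 41.1 to 57.9 CPM at 18 h. The 24 h libraries were below all others, those at 12 and 18 h were below all at 0 h, and those at 6 h overlapped with 0, 12 and 18 h. Ssbp2 had the largest change of the members at 24 h, a log2 fold change of -1.05 ± 0.14 (SE, adjusted p = 1.8e-05, edgeR) or a fold of 0.482, which held with any 1 library left out. At 12 h the value was -0.49 ± 0.14 (adjusted p = 0.0231). Leaving out library 1 or 2 of the 0 h group ended that call (0.109 and 0.063), as did leaving out library 1 or 2 of the 12 h group (0.0921 and 0.0683) and scaling by library size alone (0.158). Over 6 h the 12 h value was -0.41 ± 0.14 (adjusted p = 0.0507), which passed without the 2 libraries that stood apart (-0.44, 0.0271), with no filter on low counts (0.0478) and without library 1 at 6 h (0.00742) or library 3 at 12 h (0.0285). Over 0 h, the 18 h value was -0.48 ± 0.14 (adjusted p = 0.0336), and the call ended when library 1 or 2 at 0 h (0.146 and 0.0887) or library 1 or 3 at 18 h (0.22 and 0.0692) was left out, or with that scaling (0.139).

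Ssbp3 had 285, 324 and 301 CPM at 24 h, against 241, 199 and 235 CPM at 0 h. It had 326, 225 and 252 CPM at 6 h, 359, 284 and 262 CPM at 12 h, and 306, 249 and 256 CPM at 18 h. Libraries at 24, 12 and 18 h were all above those at 0 h, while those at 6 h overlapped with both. Over 0 h, Ssbp3 had a log2 fold change of 0.43 ± 0.14 both at 24 h (adjusted p = 0.0258) and at 12 h (SE, adjusted p = 0.0387, edgeR). At 18 h the value was 0.27 ± 0.14 and did not pass (adjusted p = 0.228). The 12 h call was lost without the 2 libraries that stood apart (0.28, adjusted p = 0.0614). With 1 library left out, it was kept only when library 3 at 12 h was the one removed. Removing library 1, 2 or 3 at 0 h gave an adjusted p of 0.0641, 0.191 or 0.0628, and removing library 1 or 2 at 12 h gave 0.184 or 0.0515. The 24 h call ended when library 2 at 0 h (0.143) or library 2 or 3 at 24 h (0.102 and 0.0544) was left out.

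Cbfa2t3 had its lowest mean at 12 h, with libraries at 152, 125 and 113 CPM, and had 171, 168 and 165 CPM at 6 h. Levels were 173, 156 and 152 CPM at 0 h, 145, 147 and 139 CPM at 18 h and 162, 173 and 157 CPM at 24 h. Library 1 at 12 h, which stood apart, was above all libraries at 18 h. Its log2 fold change at 12 h was -0.37 ± 0.11 over 6 h (SE, adjusted p = 0.0283, edgeR) and -0.30 ± 0.11 over 0 h (adjusted p = 0.0756). The call over 6 h ended when library 2 or 3 at 6 h (0.0816 and 0.0666) or library 2 or 3 at 12 h (0.101 and 0.147) was left out, under scaling by library size alone (0.171) and with no filter on low counts (0.0627). Without the 2 libraries that stood apart, both passed, at -0.48 (0.00161) and -0.42 (0.00342). Gfi1b had 2.83 to 5.02 CPM at 0 h and 4.01 to 10.2 CPM later, from 10 to 70 counts, and its log2 fold change at 24 h was 0.67 ± 0.38 (adjusted p = 0.215).

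**Figure D3:**
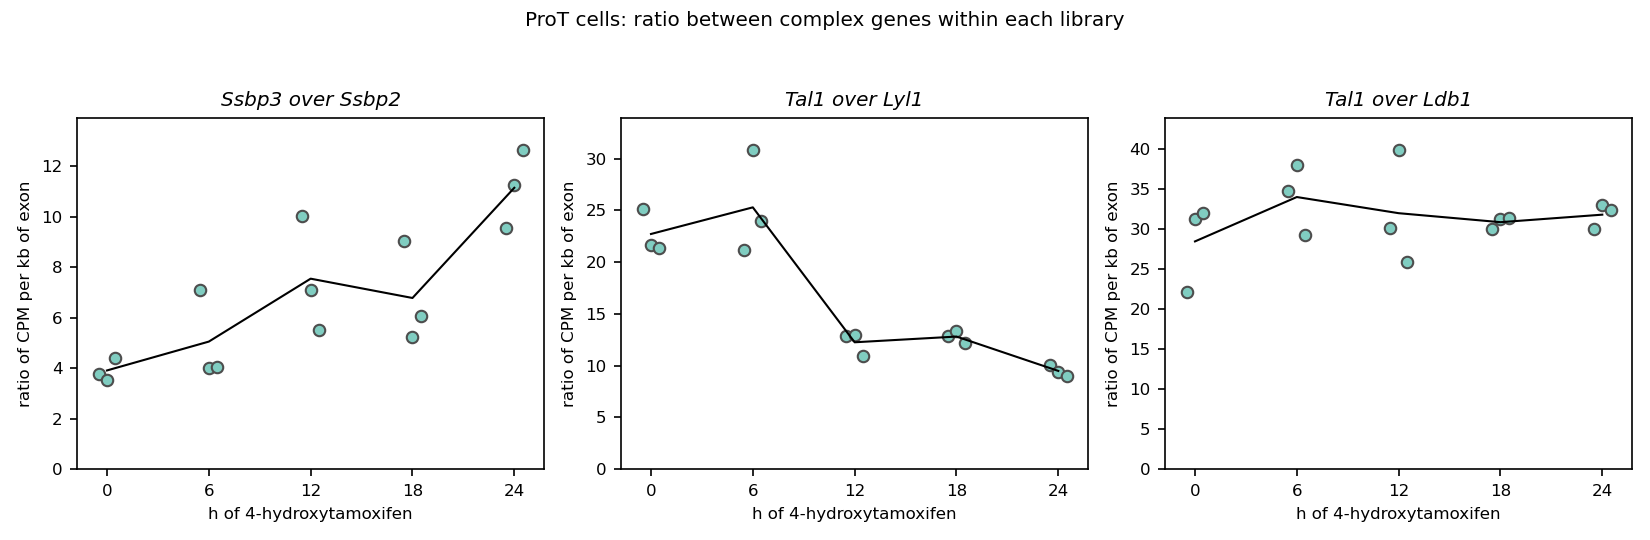
Ratio between 2 complex genes within each ProT library, from CPM per kilobase of exon, against hours of 4-hydroxytamoxifen. Points are libraries and the line joins the means; Ssbp3 over Ssbp2 has its highest mean at 24 h (libraries 9.56 to 12.6), with 1 library at 12 h, at 10.03, inside that range, Tal1 over Lyl1 is lowest at 24 h (9.01 to 10.1), and the range of Tal1 over Ldb1 at 24 h lies within that at 0 h but for its upper end.

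Ratios within a library do not depend on how libraries are scaled. For 3 pairs, chosen after the values above were seen, they were taken per kilobase of exon. Ssbp3 over Ssbp2 was 9.56, 11.2 and 12.6 at 24 h, against 3.77, 3.54 and 4.41 at 0 h, and it was 7.09 in the 6 h library that stood apart, against 4.01 and 4.05 in the others of that time. Library 1 at 12 h, the other one that stood apart, had 10.03, above the lowest library at 24 h, and library 1 at 18 h had 9.04. Tal1 over Lyl1 was 10.1, 9.36 and 9.01 at 24 h, against 25.2, 21.6 and 21.4 at 0 h, with all libraries at 12 and 18 h between 10.9 and 13.3. Neither of these ratios overlapped between 24 h and 0 h (exact permutation test, two-sided, p = 0.1 each, which is the smallest that 3 against 3 libraries allow, and 0.15 adjusted over the 3 pairs). The genes of both pairs had already parted in opposite directions between these times without overlap. That outcome was therefore fixed in advance and adds no support. Tal1 over Ldb1 was 30.1, 33.0 and 32.4 at 24 h, against 22.1, 31.3 and 32.0 at 0 h (exact permutation test, p = 0.5). Over the 15 libraries, Tal1 and Ldb1 were correlated in log2 CPM with r = 0.81, Ldb1 and Ssbp2 with r = 0.81, and Lyl1 and Ssbp2 with r = -0.91, as a description of libraries that share times and depth.

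Other genes of the pathway were counted from lists of its proteins. Of the E proteins and their ID inhibitors, 6 of 7 were tested, and Id1 and Id2, which block E proteins, fell at 24 h. Id2 had a log2 fold change of -0.55 ± 0.13 (SE, adjusted p = 0.00364) and Id1 one of -0.63 ± 0.22 (adjusted p = 0.0441, edgeR). Tcf3, Tcf4 and Tcf12, the E proteins with which TAL1 pairs, did not pass at any time, and Tcf12 averaged 210 ± 25.1 CPM at 24 h and 212 ± 18.9 CPM at 0 h (SD, n = 3). Of the 11 GATA, RUNX, MYB and ETS partners, 10 were tested. Erg, an ETS factor of blood stem cells, rose to 27.7, 25.2 and 28.9 CPM at 12 h, against 7.95, 8.5 and 13.04 CPM at 0 h, a log2 fold change of 1.41 ± 0.19 (adjusted p = 1.44e-05). Erg stayed higher at 18 h, with a value of 0.97 (adjusted p = 0.0021), and 24 h, with 1.09 (0.000276). Runx2 was lower at 12 h (-0.59, adjusted p = 0.00246) and 24 h (-0.39, adjusted p = 0.0256), and Runx1, which works with TAL1 in leukaemia cells, was higher at 24 h (0.34, adjusted p = 0.0386).

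All 15 cofactor genes were tested, and 1 passed, Kat2b, an acetyltransferase gene that was lower at 24 h (-0.38 ± 0.14, adjusted p = 0.0462, edgeR), when 18.7% of all genes were called. The E protein and partner lists had 2 of 6 and 3 of 10 genes called at that time. Whether the count of any of these lists differs from that share was not tested. Of the 9 relatives of the members, Ssbp4, Cbfa2t2 and Gfi1 were tested and none passed at any time, while Tal2, Lmo3 and Ldb2 had no counts in any ProT library. The neighbours of Tal1 on chromosome 4 did not move with it. Stil and Cmpk1 did not pass at any time, and Pdzk1ip1 had no counts. Some markers of other blood lineages differed between times in these libraries. None of the tested erythroid (4), B cell (1), endothelial (2) or thymocyte (9) markers was called at 24 h. Among these, Hbb-bt, Hbb-bs and Cd3g changed over all times together, where 18.0% of all genes did. Cd3g and Tcf7 were higher at 12 h than at 0 h, where 12% of all genes were called. Cd3g was also higher at 18 h, where 8.82% were. At 12 h against 6 h, Hbb-bs and Cd3g were higher, where 10.9% of all genes were called. The erythroid list summed to 308 to 505 CPM over the ProT libraries. The megakaryocyte and mast cell list, 4 to 7 of 9 genes detected, summed to 476 to 507 CPM at 24 h, against 270 to 296 CPM at 0 h. Nearly all of this was Cpa3, a mast cell protease gene with 428 to 462 CPM at 24 h, against 247 to 273 CPM at 0 h, while Gp9 and Ppbp did not exceed 0.247 CPM. All 3 tested genes of that list, Cpa3, Itga2b (0.79, adjusted p = 0.00391) and Mcpt8, were higher at 24 h. Cpa3 and Itga2b were higher at 12 and 18 h too. Of 5 progenitor markers tested, Kit was lower (-0.33, adjusted p = 0.029) and Mycn higher (0.71, adjusted p = 0.0014) at 24 h. Of 7 myeloid markers tested, S100a8 (-1.28, adjusted p = 0.00023) and S100a9 (-1.42, adjusted p = 0.000246) were lower at 24 h, and also at 12 and 18 h. The part of these genes in the changes of the complex genes was not tested. In bulk RNA, fewer cells of a type and less RNA per cell cannot be told apart.

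The genes whose log2 CPM followed that of Tal1 most closely over the 15 ProT libraries were Pde1b (Pearson r = 0.947), Baiap2 (0.945) and Adamts10 (0.944). For Ssbp2, the member with the smallest p over all times, they were Tsc22d1 (0.951), Tapt1 (0.948) and Gm37642 (0.944). These libraries share their times and depth, and no test is attached.

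In thymus the counted mouse genes of the complex fell into those present throughout and those near 0. Lmo4, Ldb1, Cbfa2t3, Ssbp2 and Ssbp3 were present in all 12 mice and Lyl1 was low in all, while Tal1, Lmo1, Lmo2 and Gfi1b were at or near 0 in most. The low-count filter left 6 of the 10 members for test in the AKT(E17K) experiment and 5 in the empty vector experiment. Tal1 and Lmo1 had no counts in any mouse labelled AKT(E17K) with TAL1, TAL1 or empty vector. A count of 0 allows, at 3 counts over the pooled mice, up to 0.39 CPM with AKT(E17K) and TAL1, 0.116 CPM with TAL1 and 0.207 CPM with empty vector. These floors cover counting error only. The label TAL1 was therefore not reflected in the counts of Tal1, and groups are called by their labels.

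**Figure D4:**
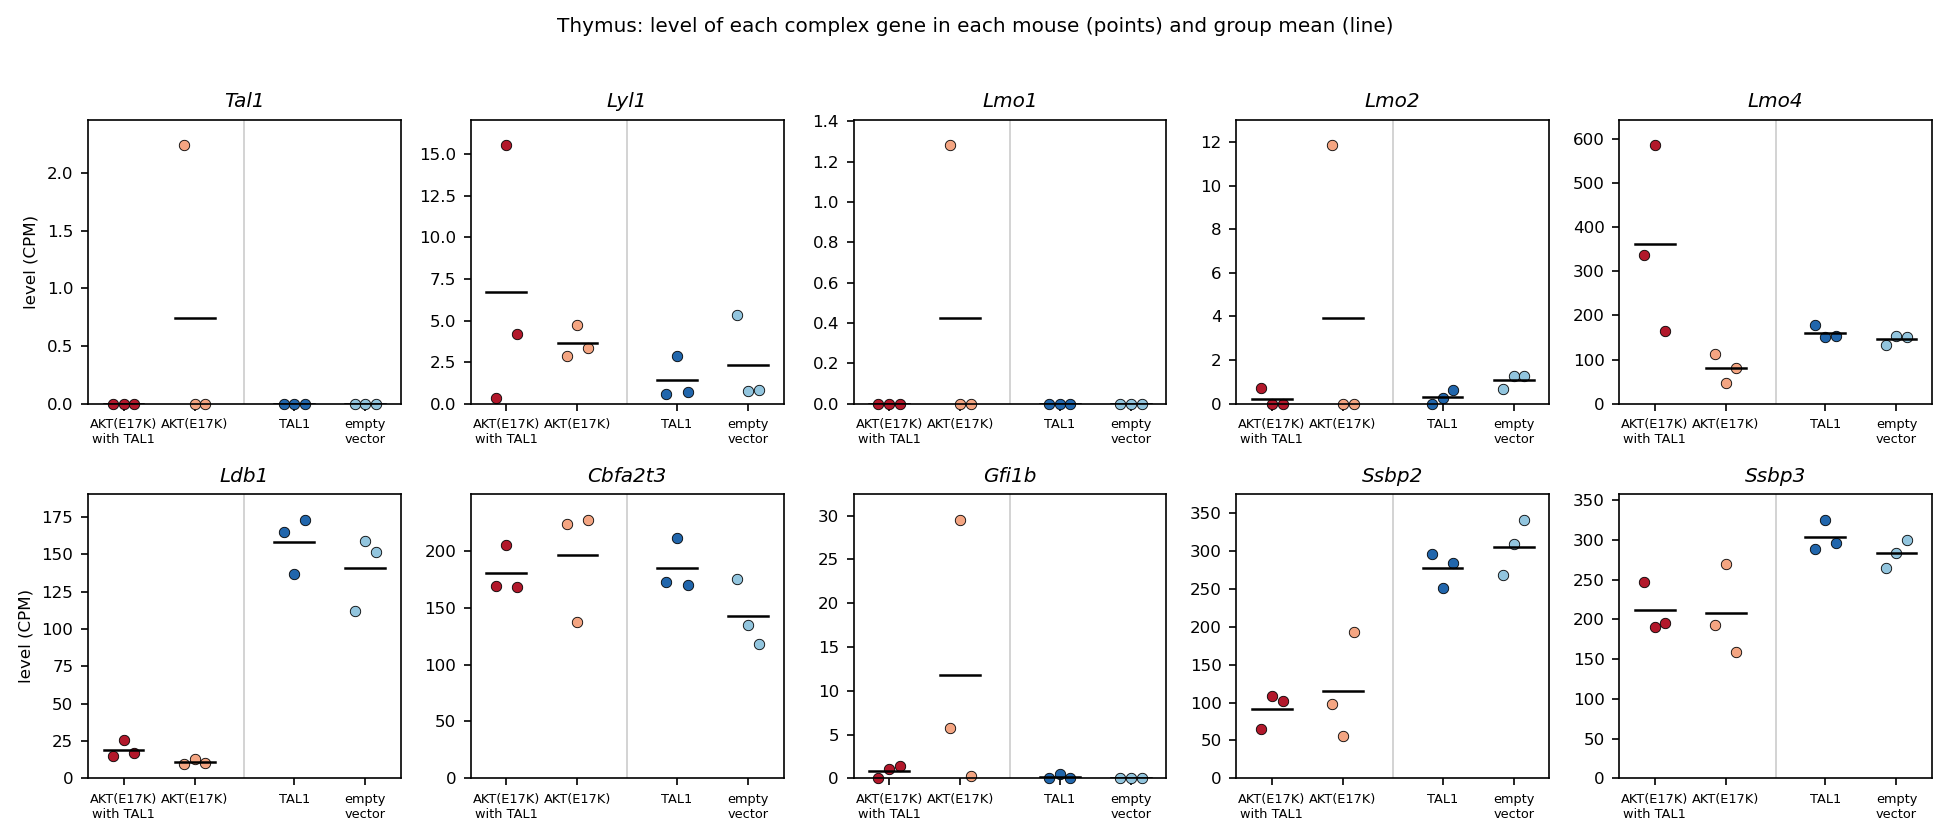
Level of each complex gene in CPM (vertical axis, from 0, a separate scale for each gene) in thymus of the 4 groups, with a point for each of 3 mice and a line at the mean. The grey line divides 2 tables that were counted and scaled separately, so levels are to be read only within each side; Lmo4 is higher in all 3 mice with AKT(E17K) and TAL1 than in the 3 with AKT(E17K), and Tal1, Lmo1, Lmo2 and Gfi1b are seen mainly in m121 or m122.

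No member was called between mice labelled AKT(E17K) with TAL1 and those labelled AKT(E17K) (edgeR, 6 tested), where 0% of 9782 genes were. At an unadjusted p under 0.05 there were 2 members and 709 genes, and DESeq2 called 1 member, Lmo4, and 76 genes. Lmo4 had 337, 585 and 165 CPM in m116, m117 and m119 with AKT(E17K) and TAL1, against 112, 46.4 and 81.8 CPM in m121, m122 and m124 with AKT(E17K). The groups did not overlap, and m119, the lowest of the mice with TAL1, was the mouse most like m124. The log2 fold change was 2.17 ± 0.47 (SE, adjusted p = 0.373, edgeR). It had adjusted p of 0.0268 with no filter on low counts and 0.000339 by DESeq2, and 0.124 to 0.993 with 1 mouse left out, where the value ranged between 1.65 without m117 and 2.52 without m119.

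Ldb1 had 14.8, 25.4 and 17.2 CPM in mice with AKT(E17K) and TAL1, against 9.29, 12.6 and 10.03 CPM with AKT(E17K), from 24 to 72 counts per mouse. The groups did not overlap, but the log2 fold change of 0.85 ± 0.37 did not pass (SE, adjusted p = 0.68, edgeR). Lyl1 had 0.352, 15.5 and 4.19 CPM with AKT(E17K) and TAL1, against 2.88, 4.74 and 3.34 CPM with AKT(E17K), so that m116 was the lowest and m117 the highest of all 6. Its log2 fold change, 0.89 ± 0.96 (adjusted p = 0.852), was -0.70 without m117. For Cbfa2t3, Ssbp2 and Ssbp3 the values were -0.12 ± 0.25, -0.34 ± 0.41 and 0.03 ± 0.25 (adjusted p from 0.868 to 0.986), and the groups overlapped.

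Counts on the blood lineage members came mainly from 2 AKT(E17K) mice. In m121, Lmo2 had 37 counts (11.9 CPM), Gfi1b 18 (5.77 CPM), Tal1 7 (2.24 CPM) and Lmo1 4 (1.28 CPM), and it was the only thymus with counts on Tal1 or Lmo1. The same mouse had the highest sums of the erythroid (939 CPM), megakaryocyte and mast cell (41.0 CPM, of which Pf4 made up 37.2), myeloid (885 CPM) and progenitor (30.1 CPM) markers among the 6, and it was the only one with counts on all 5 endothelial markers. Other mice of the experiment had at most 5.28 CPM for the megakaryocyte and mast cell list. The erythroid sum came from globin genes, and Klf1 was at 0 in m121. In m122, Gfi1b had 56 counts (29.5 CPM), the highest of any library, with 0 counts on Tal1, Lmo1 and Lmo2. That mouse had 126 CPM of erythroid and 76.9 CPM of myeloid markers, the lowest of its group, with Klf1 and Epor at 0. The other 4 mice of the experiment had 0 to 1.4 CPM of Gfi1b. The part of other cell types in these counts was not tested.

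Between mice labelled TAL1 and empty vector no member was called (edgeR, 5 tested), where 5.04% of 12357 genes were. At an unadjusted p under 0.05 there was 1 member, Cbfa2t3, against 2174 genes, and DESeq2 called 0 members and 894 genes. Cbfa2t3 had 173, 211 and 170 CPM in M317, M318 and M319 with TAL1, against 175, 135 and 118 CPM in M311, M312 and M315 with empty vector. The groups overlapped through M311. The log2 fold change was 0.37 ± 0.15 (SE, adjusted p = 0.197, edgeR). It became 0.55 (adjusted p = 0.0253) without M311 and also passed with no filter on low counts (0.0377). M318 had the highest level of Cbfa2t3 in the table and also the highest sum of myeloid markers, 377 CPM against 13.3 to 33.7 CPM in the other 5 mice, and its part was not tested.

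Lmo4 averaged 161 ± 15.4 CPM with TAL1 and 146 ± 11.8 CPM with empty vector (SD, n = 3), a log2 fold change of 0.14 ± 0.11 (SE, adjusted p = 0.595, edgeR). Ldb1 averaged 158 ± 18.8 CPM with TAL1 and 141 ± 25.2 CPM with empty vector (0.17 ± 0.14, adjusted p = 0.611). Ssbp2 averaged 277 ± 23.1 CPM with TAL1 and 306 ± 36.3 CPM with empty vector (-0.14 ± 0.11, adjusted p = 0.579), and Ssbp3 was 303 ± 18.9 CPM with TAL1 and 283 ± 17.8 CPM with empty vector (0.10 ± 0.09, adjusted p = 0.658). Lyl1 was too low for test, with 0.572 to 2.89 CPM with TAL1 and 0.772 to 5.32 CPM with empty vector. Lmo2, also too low for test, had 0 to 0.629 CPM with TAL1 and 0.665 to 1.29 CPM with empty vector. Those Lmo2 levels rest on 0 to 7 counts in these 6 mice. Per kilobase, Ssbp3 over Ssbp2 was 1.18 to 1.56 with TAL1 and 1.07 to 1.2 with empty vector.

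The TAL1 effect with AKT(E17K) minus the effect without it was tested over the 12 mice on 10947 genes shared by both tables, of which 0.164% were called. All mice with AKT(E17K) belonged to 1 experiment and those without it to the other. In this difference, AKT(E17K) and experiment cannot be told apart. No member was called (edgeR, 6 tested). At an unadjusted p under 0.05 there were 2 members, Lmo4 and Ldb1, against 1189 genes, and DESeq2 called 1 member, Lmo4, and 186 genes. For Lmo4 the difference was 2.05 ± 0.52 on the log2 scale (SE, adjusted p = 0.165, edgeR). It passed with no filter on low counts (0.03), by DESeq2 (0.0121) and without m119 (2.39, adjusted p = 0.0248), and had adjusted p of 0.0823 to 0.373 with any other mouse left out. Ldb1 differed by 0.72 ± 0.33 (adjusted p = 0.449).

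In the pathway lists no gene was called in the AKT(E17K) comparison or in the difference between TAL1 effects. Between TAL1 and empty vector, Id2 had 88.2, 69.3 and 70.6 CPM with TAL1, against 155, 126 and 112 CPM with empty vector (log2 fold change -0.79 ± 0.15, SE, adjusted p = 0.00733, edgeR). Runx3, a RUNX factor of mature T cells, was lower with TAL1 (-0.82 ± 0.16, adjusted p = 0.0105). Stil, which lies beside Tal1 and encodes a centriole protein, was higher (1.101 ± 0.21, adjusted p = 0.00802), averaging 55.9 CPM with TAL1 and 25.9 CPM with empty vector. Of 13 thymocyte markers tested in these groups, 2 were called, Dntt and Cd8b1, both higher with TAL1. Log2 fold changes were negative for 4 of the 13. Of 2 endothelial markers tested, Pecam1 was called lower, and the other had a positive value. Between these groups 5.04% of all genes were called. The part of cell make-up in the list results was not tested.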

How the data were processed

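RNA from thymus and ProT cells was extracted with Promega Maxwell chemistry and sequenced as Illumina libraries, per the labels' protocols. The authors deposited whole-number counts per gene, not normalized, in 3 tables. Per the submitters' processing notes reads were handled with HTSeq, HISAT2, FastQC and SAMtools, on mm10 or GRCm38. Versions, annotation and strand setting are not given in the sources used here. Summary lines were left out, and 27 symbols in each of 2 tables that had become dates were restored from their identifiers. No columns of other samples were present.

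Counts were tested with edgeR 4.0.16 in R 4.3.3 (TMM, filterByExpr, quasi-likelihood F test, Benjamini-Hochberg adjustment over all genes tested, threshold 0.05), each table in its own fit, with all 15 ProT libraries sharing 1 estimate of the spread. Each SE was taken from F, as the size of the log2 fold change over its square root. CPM uses filtered totals times TMM factors, and levels between genes use GENCODE M21 exon length. Sequences are from RefSeq. Alternatives were DESeq2 size factors, scaling by library size alone, no low-count filter, DESeq2 1.42.0, each replicate left out, a replicate block and, chosen after seeing the data, leaving out 2 ProT libraries. The scripts were tested on simulated data. No 2 libraries of a group agreed within sampling noise. All 10 members are named in every group, and other genes come from lists. The members and lists were chosen with earlier results of these data known.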

Additional observations from a re-analysis of the deposited data

How the results depend on the processing

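DESeq2 size factors in the edgeR fit ended no call of a member. With no filter on low counts, 30 genes and 1 member were called for AKT(E17K) with TAL1 against AKT(E17K), 1107 and 1 for TAL1 against empty vector, and 58 and 1 for the difference between TAL1 effects. DESeq2 called 76 genes and 1 member in the first of these, 186 and 1 in the last, and 1 gene at 6 h. Scaling by library size alone left 2 members called at 18 h and split the calls into 2041 higher and 339 lower (12 h), 1122 and 246 (18 h), 2560 and 622 (24 h), and 908 and 386 (12 h against 6 h). Without the 2 ProT libraries that stood apart, 2061 genes were called at 18 h, 2719 at 12 h against 6 h, and 4471 genes with 8 members over all times. With 1 replicate left out, genes called ranged between 0 and 8 for the AKT(E17K) pair, 337 and 661 for TAL1 against empty vector, 2 and 173 for the difference, 819 and 1521 (12 h), 419 and 1006 (18 h), 1447 and 2281 (24 h), and 657 and 2434 (12 h against 6 h). Members called ranged between 0 and 1 for TAL1 against empty vector and for the difference, 3 and 5 (12 h), 0 and 3 (18 h), and 2 and 6 (12 h against 6 h).

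Signs turned only for values that passed no test either way, and the cause was not tested. Under scaling by library size alone these were Ssbp3 in the difference between TAL1 effects (0.035) and, at 6 h, Lyl1 (0.051), Lmo4 (0.0083) and Ssbp2 (0.014). Without the 2 libraries they were Lmo1 (-0.10) and Ssbp2 (0.047) at 6 h, Lmo4 (-0.024) at 12 h and Gfi1b (-0.13) at 12 h against 6 h. With 1 replicate left out, log2 fold changes ranged between -0.70 and 1.45 for Lyl1, -0.66 and 0.25 for Ssbp2 and -0.13 and 0.26 for Ssbp3 in the AKT(E17K) pair. In the difference they ranged between -0.50 and 0.41 for Ssbp2 and -0.20 and 0.18 for Ssbp3. At 6 h the ranges were -0.14 to 0.017 for Lyl1, -0.095 to 0.41 for Lmo1, -0.34 to 0.022 for Lmo2 and -0.17 to 0.046 for Ssbp2. They were -0.026 to 0.12 for Lmo4 at 12 h, -0.28 to 0.074 for Lmo1 at 18 h, -0.050 to 0.27 for Lmo1 and -0.0042 to 0.095 for Cbfa2t3 at 24 h, and -0.27 to 0.28 for Gfi1b at 12 h against 6 h.

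Same-numbered ProT libraries deviated from the means of their times with r of -0.143 to 0.213, and differently numbered ones with r of -0.176 to 0.238. The numbers thus gave no sign of pairing, but 3 libraries per time cannot exclude it. The main fit had no replicate block. With a replicate block, the members called numbered 5 (12 h), 4 (18 h), 5 (24 h), 6 (12 h against 6 h) and 7 (over all times), where 12%, 9.07%, 19.6%, 11.3% and 18.5% of all genes were called. The block added Ssbp2 at 12 h against 6 h (adjusted p = 0.0443) and, over all times, Cbfa2t3 (0.0438) and Ssbp3 (0.0435), and ended no call of a member.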

Other observations

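In the AKT(E17K) table Ldb1 had 9.29 to 25.4 CPM and Pprc1, which overlaps it on the other strand, 12.7 to 28.3 CPM, while in the empty vector table Ldb1 had 112 to 173 CPM and Pprc1 8.63 to 22.6 CPM. The tables were counted separately and their levels were not compared by a test.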
